A study of Mus musculus with 8 samples.

Results

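The small heat shock proteins and their partner Bag3 were followed in the tongue of A17/+ and WT mice through 8 genes: Hspb1, Hspb2, Hspb3, Hspb6, Hspb7, Hspb8, Cryab and Bag3. They were chosen by name, without the related genes Cryaa, Hspb9 and Odf1, which are not analysed here, and all 8 were found among the 19857 genes of the deposited count table. The A17/+ group held 4 female mice aged 12 months with 1 PABPN1 A17 allele beside 1 normal allele. The WT group held 4 female wild type mice of the same age. The allele models oculopharyngeal muscular dystrophy, in which eyelid and throat muscles weaken late in life and the nuclear poly(A) binding protein PABPN1, with a lengthened alanine stretch, forms nuclear aggregates. Total RNA was taken from frozen sections of the mid-tongue, so muscle, epithelium, connective tissue and vessels were read together. The labels do not state how the allele is driven or on which strain it is kept.

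Small heat shock proteins share an alpha-crystallin domain, form oligomers, and hold unfolding proteins in a soluble state without using ATP. Striated muscle makes several of them, and there they bind desmin, filamin, titin and actin under mechanical load. Bag3 is the cochaperone that links Hspb8 to Hsp70 and the ubiquitin ligase Stub1, and this complex carries damaged Z-disc proteins to autophagy (chaperone-assisted selective autophagy). Heat shock factor 1 induces part of the family under stress, through elements built from GAA units in alternating orientation.

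The promoters that could be read carried short pieces of such elements. Of the 8 genes, 6 had a promoter entry in RefSeq (GRCm38.p6), from 250 bases before the annotated start to 50 bases after it, and Hspb6 had 2 starts. Cryab and Hspb2 had no entry. An element of 2 units, GAANNTTC, which reads the same on both strands, occurred in the promoters of 5 of these 6 genes: Hspb1, Hspb3, Hspb6, Hspb8 and Bag3. It occurred in 7.86% of the 32851 promoters of the same length in the table. The 3-unit form, GAANNTTC followed by NNGAA and searched on both strands, occurred in 0 of the 6 genes and in 0.603% of all promoters, and the 2-unit form TTCNNGAA in 0 of the 6 and in 8.52% of all. In 4 genes the match was spelled GAAGTTTC, a spelling picked out after it was seen, which on either strand occurred in 1.21% of all promoters. These 4 promoters are shown because the same spelling stands in Hspb6, which was called higher in A17/+, and in 3 genes that were not called. Capitals mark GAANNTTC matches and, in Hspb6, the TATAAA motif, which 13.6% of all promoters hold on either strand.
Hspb6, second start (chr7:30553051-30553350, plus strand): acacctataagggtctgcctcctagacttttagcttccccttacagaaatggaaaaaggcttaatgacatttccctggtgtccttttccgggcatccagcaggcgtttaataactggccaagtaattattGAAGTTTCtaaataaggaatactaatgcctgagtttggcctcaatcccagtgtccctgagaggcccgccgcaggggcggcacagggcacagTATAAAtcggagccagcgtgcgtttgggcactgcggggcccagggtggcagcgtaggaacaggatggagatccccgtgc
Hspb1 (chr5:135887669-135887968, plus strand): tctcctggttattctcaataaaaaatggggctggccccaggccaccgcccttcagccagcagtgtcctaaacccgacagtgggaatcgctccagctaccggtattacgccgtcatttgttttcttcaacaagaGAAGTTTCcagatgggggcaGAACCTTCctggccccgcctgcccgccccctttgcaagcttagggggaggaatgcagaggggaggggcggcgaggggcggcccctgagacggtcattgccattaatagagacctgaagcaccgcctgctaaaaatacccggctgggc
Hspb8 (chr5:116422815-116423114, minus strand): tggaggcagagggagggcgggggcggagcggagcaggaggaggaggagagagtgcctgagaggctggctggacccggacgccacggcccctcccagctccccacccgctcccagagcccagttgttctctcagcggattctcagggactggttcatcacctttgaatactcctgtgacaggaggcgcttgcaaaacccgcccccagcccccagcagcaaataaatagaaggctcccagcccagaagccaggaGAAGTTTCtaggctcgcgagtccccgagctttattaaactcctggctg
Bag3 (chr7:128523333-128523632, plus strand): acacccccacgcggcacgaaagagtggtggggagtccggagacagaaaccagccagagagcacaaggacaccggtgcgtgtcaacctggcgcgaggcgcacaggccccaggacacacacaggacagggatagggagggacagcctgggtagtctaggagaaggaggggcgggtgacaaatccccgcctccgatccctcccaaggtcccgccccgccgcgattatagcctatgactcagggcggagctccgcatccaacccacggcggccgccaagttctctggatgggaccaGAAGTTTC
Counted from the annotated start at 0, the GAAGTTTC match began at -120 in Hspb6 and -117 in Hspb1, before the start, and at 2 in Hspb8 and 42 in Bag3, after it. A match describes the letters only and does not show that a factor binds there.

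Before the results, the libraries themselves need describing. The A17/+ libraries held 395061 to 485326 unique molecules and the WT libraries 205696 to 465014, and 14219 to 14437 genes were detected in A17/+ against 11339 to 14164 in WT. Transcripts shorter than 1000 nt took 6.26% to 8.97% of counts in A17/+ and 4.34% to 6.46% in WT, and mitochondrial transcripts took 7.24% to 11.0% in A17/+ and 4.17% to 6.43% in WT. On the first principal component, with 50.2% of the variance, A17/+ 1 and WT 1 stood closest to the other genotype. WT 1 carried far more salivary gland RNA than any other library, with a summed level of 2055 CPM for 5 gland genes. The A17/+ libraries held 14.1 to 57.0 CPM and the other WT libraries 0 to 10.2 CPM. Skeletal muscle markers were present throughout, at a summed 101747 to 120467 CPM in A17/+ and 77973 to 107115 CPM in WT. Of the 8 marker genes 4 were higher and 0 lower, beside 6.34% higher and 2.61% lower among all tested genes. Among tested genes with transcripts under 1500 nt, 31.6% were higher. The part of muscle content in the results was not tested. Levels are CPM, counts scaled by library size with the TMM factors of edgeR, and each count is 1 molecule tagged at its 3' end.

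The comparison asked whether the small heat shock genes differed between A17/+ and WT tongue. Hspb6 and Cryab rose in A17/+, and Hspb8 and Bag3 of the autophagy complex did not pass with all 8 libraries and TMM scaling, although Hspb8 passed as lower in 2 of the alternatives given with its values. Of the 8 genes, 6 had enough counts to be tested, and 2 of these were higher and 0 lower at an adjusted p under 0.05 (edgeR quasi-likelihood, Benjamini-Hochberg over 5066 genes). Of all tested genes 6.34% were higher and 2.61% lower, so 70.9% of the calls were higher, against 49.1% with library totals in place of TMM and 51.7% with a transcript length trend removed. An unadjusted p under 0.05 was reached by 4 of the 6. The median log2 fold change of the 6 tested genes was 0.74, beside 0.01 for all tested genes. Every A17/+ value lay above every WT value for 3 of the 6 (Hspb6, Cryab and Hspb7) and for 8.57% of all tested genes. The reverse order was seen for 0 of the 6 and for 6.08% of all. In bulk tissue, more cells of a type and more RNA per cell cannot be told apart.

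**Figure D1:**
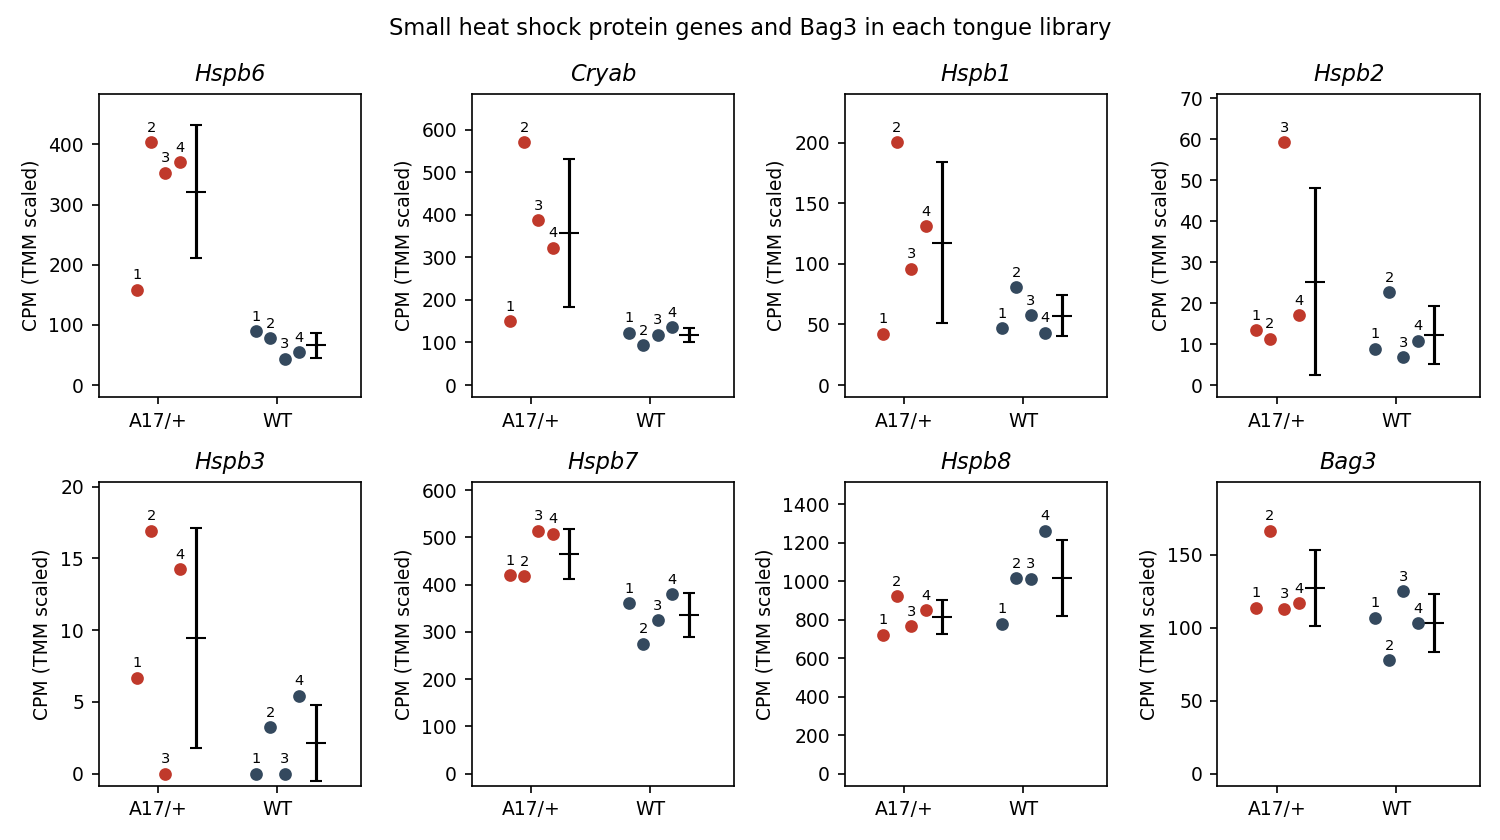
TMM-scaled CPM (y axis, linear) of each gene in the 4 A17/+ and 4 WT libraries. Points are single mice labelled with the replicate number, and bars give mean and SD over 4. Hspb6, Cryab and Hspb7 have no overlap between the groups, and A17/+ 1 is the lowest A17/+ library for Hspb6, Cryab and Hspb1.

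Hspb6 (ENSMUSG00000036854, mm10 chromosome 7, 30552178 to 30555443, plus strand) encodes Hsp20, a small heat shock protein of smooth and striated muscle that assembles with alphaB-crystallin and is phosphorylated by cyclic nucleotide-dependent kinases. In A17/+ libraries 1 to 4 it stood at 158, 404, 353 and 371 CPM, against 89.1, 77.6, 44.0 and 54.2 CPM in WT libraries 1 to 4. The groups did not overlap, although A17/+ 1 lay well below the other A17/+ libraries and WT 1 was the highest of its group. The mean was 321 ± 111 CPM in A17/+ and 66.2 ± 20.8 CPM in WT (SD, n = 4 each), a 4.69-fold rise (log2 fold change 2.23, SE 0.30, edgeR adjusted p = 0.00187). By p it ranked 4 among the 5066 genes. The 95% interval ran from 3.01-fold to 7.30-fold. Of its exonic bases, 122 overlap Proser3 on the other strand, and whether the counting used strand is not given in the sources used here.

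Cryab (ENSMUSG00000032060, chromosome 9, 50751325 to 50756636, plus strand) encodes alphaB-crystallin, the chaperone of desmin filaments, whose mutations cause a myofibrillar myopathy. Its A17/+ levels were 149, 571, 387 and 322 CPM, against WT levels of 123, 93.7, 118 and 135 CPM. A17/+ 1 lay just above the highest WT library, and A17/+ 2 lay far above all the others. With 357 ± 174 CPM in A17/+ and 118 ± 17.5 CPM in WT (SD, n = 4 each), Cryab rose 3.04-fold (log2 fold change 1.60, SE 0.33, edgeR adjusted p = 0.00964). The spread within A17/+ (coefficient of variation 48.7%) was larger than within WT (14.8%). The call was lost without WT 3, with an edgeR adjusted p of 0.0517 at a log2 fold change of 1.59, and with limma-voom, with an adjusted p of 0.0737 at 1.44.

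Hspb1 (ENSMUSG00000004951, chromosome 5, 135887919 to 135889563, plus strand) encodes Hsp27, a stress protein of many cell types that binds actin and intermediate filaments. Its levels were 42.4, 201, 96.1 and 131 CPM in A17/+ and 46.8, 80.8, 57.5 and 43.3 CPM in WT. The groups overlapped, because A17/+ 1 held the lowest value of all 8 libraries. The mean of 118 ± 66.3 CPM in A17/+ and 57.1 ± 16.9 CPM in WT (SD, n = 4 each) gave a log2 fold change of 1.01 (SE 0.40, edgeR adjusted p = 0.126). Without A17/+ 1 the log2 fold change was 1.25 and the edgeR adjusted p 0.00601. In that fit 586 of 5491 tested genes were higher, against 321 of 5066 with all 8 libraries. Without A17/+ 2, which held the highest level, Hspb1 had a log2 fold change of 0.62 (edgeR adjusted p = 0.271).

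Hspb2 and Hspb3 encode muscle proteins that form a complex with each other. Hspb2 (ENSMUSG00000038086, chromosome 9, 50751078 to 50752354, minus strand) lies head to head with Cryab, and the annotated exons of both genes share 252 bases on opposite strands. Without knowledge of strand in the counting, reads from that stretch cannot be assigned with certainty. Hspb2 had 6, 4, 21 and 6 counts in A17/+ 1 to 4, against 4, 7, 2 and 2 counts in WT 1 to 4. A17/+ 3 alone held most of the A17/+ counts, and the other A17/+ libraries lay within the WT range of CPM. The summed counts of 37 in A17/+ and 15 in WT gave a ratio of 2.00 after scaling (95% exact interval 1.07 to 3.93, which covers counting error only). Over the mice the exact permutation p was 0.286, two-sided, where 0.0286 is the smallest p the 70 assignments allow. The log2 ratio of mean CPM was 1.04 with all libraries and 0.18 without A17/+ 3.

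Hspb3 (ENSMUSG00000051456, chromosome 13, 113662896 to 113663676, minus strand) was close to the limit of detection. It had 3, 6, 0 and 5 counts in A17/+ and 0, 1, 0 and 1 counts in WT. A library at 0 allows up to 3 counts, which is 8.48 CPM in A17/+ 3, 6.69 CPM in WT 1 and 10.2 CPM in WT 3. Summed, 14 counts in A17/+ and 2 counts in WT gave a ratio of 5.68 with an exact 95% interval from 1.30 to 51.5, and the exact permutation p over the mice was 0.229. The log2 ratio of mean CPM was 2.13 with all libraries and 1.66 (without WT 1) to 3.10 (without WT 4) when 1 library was left out.

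Hspb7 (ENSMUSG00000006221, chromosome 4, 141420779 to 141425311, plus strand) encodes the cardiovascular heat shock protein, which binds filamin C in striated muscle. Its levels of 419, 418, 514 and 507 CPM in A17/+ lay above the 361, 275, 325 and 379 CPM of WT. The groups did not overlap, and both were tight, with coefficients of variation of 11.5% in A17/+ and 13.8% in WT. Means of 465 ± 53.3 CPM in A17/+ and 335 ± 46.1 CPM in WT (SD, n = 4 each) gave a log2 fold change of 0.47 (SE 0.16), which did not pass (edgeR adjusted p = 0.0763). The 95% interval of the fold ran from 1.09 to 1.76, before adjustment over all genes.

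Hspb8 (ENSMUSG00000041548, chromosome 5, 116408491 to 116422864, minus strand) encodes Hsp22, which Bag3 holds in the autophagy complex. It had the highest CPM of the 8 genes in every library, and its levels were 722, 921, 766 and 849 CPM in A17/+ against 778, 1015, 1012 and 1262 CPM in WT. Means were 815 ± 88.3 CPM in A17/+ and 1017 ± 198 CPM in WT (SD, n = 4 each), with overlap through WT 1. The log2 fold change was -0.31 (SE 0.17, edgeR adjusted p = 0.248), and its 95% interval ran from 0.631-fold to 1.02-fold. It passed as lower without WT 1, at -0.46 with an edgeR adjusted p of 0.0435. In that fit 383 of 5461 tested genes were lower, against 132 of 5066 with all 8 libraries.

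Bag3 (ENSMUSG00000030847, chromosome 7, 128523616 to 128546981, plus strand) had 114, 167, 113 and 117 CPM in A17/+ and 107, 77.6, 125 and 103 CPM in WT. The groups overlapped, and A17/+ 2 stood above the other 7 libraries. Means of 128 ± 26.1 CPM in A17/+ and 103 ± 19.6 CPM in WT (SD, n = 4 each) gave a log2 fold change of 0.30 (SE 0.23, edgeR adjusted p = 0.446). The 95% interval ran from 0.880-fold to 1.73-fold.

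The make-up of the family RNA was followed as shares. Hspb8 made up 37.1% ± 5.07 of the summed CPM of the 8 genes in A17/+ and 59.1% ± 5.31 in WT (SD, n = 4 each), with no overlap (33.5% to 44.4% against 51.4% to 63.3%). Hspb6 made up 14.0% ± 2.87 in A17/+ and 3.98% ± 1.60 in WT, and Cryab 15.2% ± 5.01 in A17/+ and 6.90% ± 0.985 in WT. Bag3 kept close shares of 5.78% ± 0.984 in A17/+ and 6.09% ± 1.35 in WT. The 8 genes together reached 1625 to 2708 CPM in A17/+ and 1513 to 1994 CPM in WT, ranges that overlap because A17/+ 1 was lower than 3 of the WT libraries. These sums and shares are a description, and no test was made of them. The share of Hspb8 also moves with the levels of the other genes, among which Hspb6 and Cryab were called higher.

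**Figure D2:**
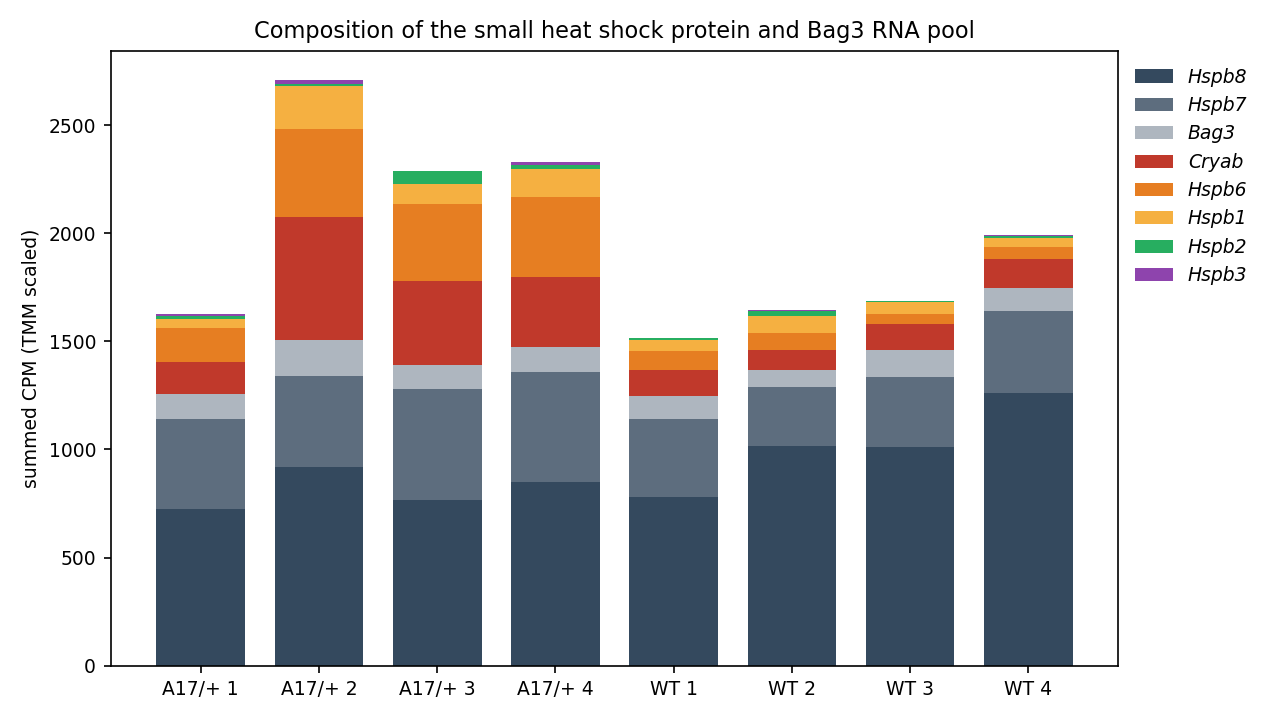
Stacked bars of TMM-scaled CPM (y axis, from 0) for the 8 genes in each library, A17/+ on the left and WT on the right. The Cryab, Hspb6 and Hspb1 segments are together 350 to 1175 CPM in A17/+ and 220 to 259 CPM in WT, and the Hspb8 segment is the largest in every library.

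To compare genes with each other, levels were divided by the length of the longest annotated transcript (CPM per kb). In A17/+ the order of mean CPM per kb was Hspb8 (449), Cryab (320), Hspb6 (236), Hspb7 (168), Hspb1 (126), Bag3 (49.8), Hspb2 (32.7) and Hspb3 (12.1). The ranges of every neighbouring pair in that order overlapped over the 4 A17/+ libraries. In WT the order of CPM per kb was Hspb8 (560), Hspb7 (121), Cryab (105), Hspb1 (61.4), Hspb6 (48.6), Bag3 (40.3), Hspb2 (15.9) and Hspb3 (2.77). There Hspb8 stood apart from Hspb7, Bag3 from Hspb2 and Hspb2 from Hspb3, while the other neighbouring pairs overlapped. Hspb6 thus held place 5 in WT and place 3 in A17/+. Counts made at the 3' end need not scale with length, so the order on this scale is approximate.

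Transcript length moved with the result. The tested genes with transcripts under 1500 nt, a limit set after the data were seen, were higher in A17/+ in 31.6% of 452 cases, against 3.86% of the 4608 genes with longer transcripts. Their median log2 fold changes were 0.77 under 1500 nt and -0.03 above. Hspb1 (930 nt), Cryab (1117 nt) and Hspb6 (1363 nt) belong to the short class, where 2 of these 3 were higher. Hspb8 (1816 nt), Bag3 (2562 nt) and Hspb7 (2769 nt) belong to the long class, where 0 of 3 were higher or lower. With a length trend removed from each library, Hspb6 kept a log2 fold change of 1.62 (edgeR adjusted p = 0.00107) and Cryab 0.78 (edgeR adjusted p = 0.0465). In the same fit Hspb1 came to 0.03 (edgeR adjusted p = 0.967), and Hspb8 fell by 0.65 on the log2 scale (edgeR adjusted p = 0.0240). That fit called 249 of 5066 tested genes lower, against 132 with no length trend removed.

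**Figure D3:**
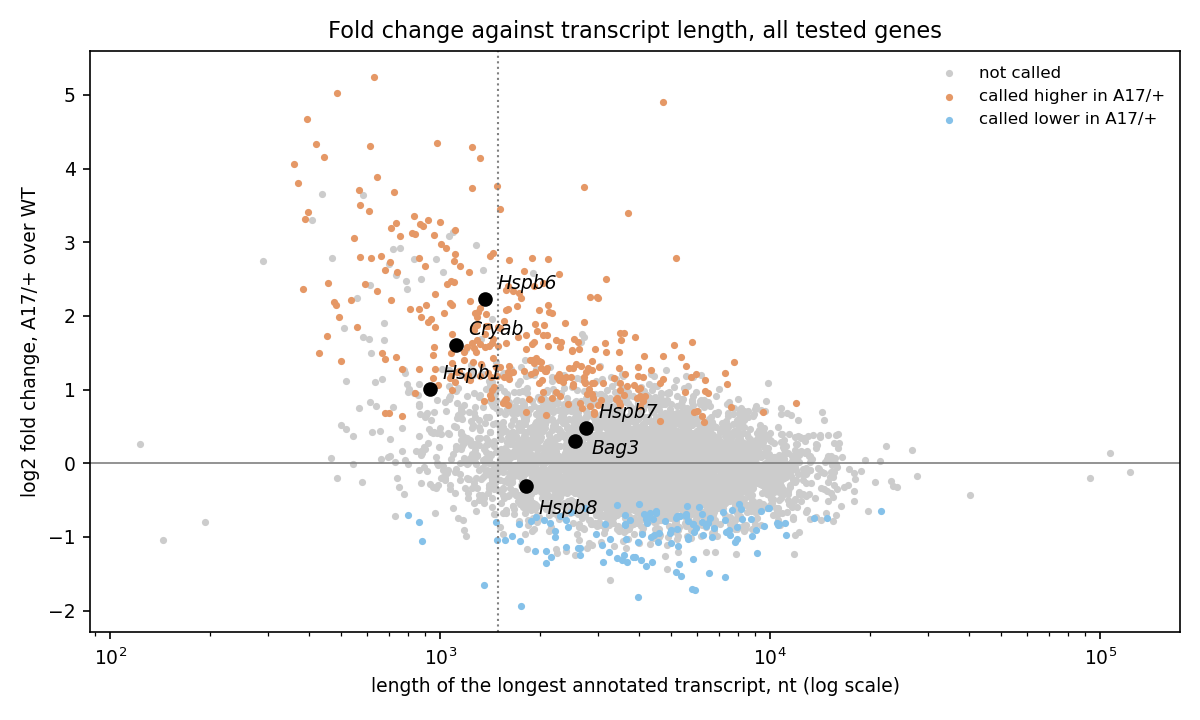
Log2 fold change of A17/+ over WT (y axis) against transcript length in nt (x axis, log scale) for all tested genes with a known length. Black points are the 6 tested family genes and the dotted line marks 1500 nt. Hspb1, Cryab and Hspb6 lie left of the line among many genes called higher, and Hspb7, Bag3 and Hspb8 lie to its right at values between -0.31 and 0.47.

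Without both libraries numbered 1, which stood closest to the other genotype, 4 of 6 tested family genes were higher. In that fit 695 of 4907 tested genes were higher and 330 lower, against 321 and 132 of 5066 with all 8 libraries. Hspb6 then had a log2 fold change of 2.66 (edgeR adjusted p = 8.2e-07), Cryab 1.90 (edgeR adjusted p = 2.6e-05), Hspb1 1.19 (edgeR adjusted p = 0.0140) and Hspb7 0.57 (edgeR adjusted p = 0.0351). Hspb8 had -0.37 (edgeR adjusted p = 0.115) and Bag3 0.38 (edgeR adjusted p = 0.371). Hspb6 passed in each of the 8 fits that left out 1 library, with log2 fold changes from 2.05 to 2.40 and edgeR adjusted p of at most 0.0214.

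**Figure D4:**
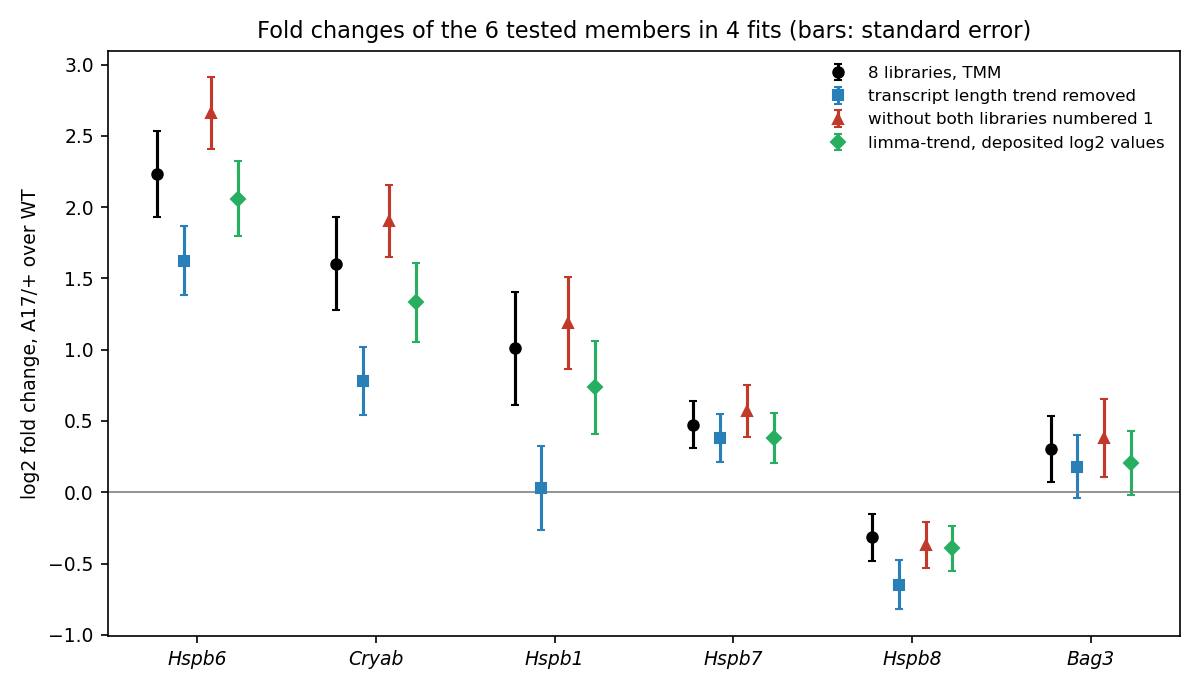
Log2 fold change of A17/+ over WT (y axis) with standard errors for the 6 tested genes in 4 fits. Hspb6 lies between 1.62 and 2.66 and Cryab between 0.78 and 1.90, Hspb1 reaches 0.03 when the length trend is removed, and Bag3 stays between 0.18 and 0.38.

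The partners of Bag3 and Hspb8 were read as a list. Of 15 genes of chaperone-assisted autophagy and of the BAG family, 12 were tested, 0 were higher and 0 lower, beside 6.34% higher and 2.61% lower among all tested genes. With 12 genes, a count of 0 beside these shares is not read as a result about the list. The median log2 fold change was 0.15, beside 0.01 for all tested genes. With edgeR 3 of them had an unadjusted p under 0.05, and DESeq2 also called 0. Stub1, the ubiquitin ligase CHIP, had 45.3 ± 21.7 CPM in A17/+ and 15.7 ± 8.53 CPM in WT (SD, n = 4 each), a log2 fold change of 1.40 (edgeR adjusted p = 0.0535). Bag1, another Hsp70 cochaperone, had 111 ± 22.6 CPM in A17/+ and 62.8 ± 13.0 CPM in WT (SD, n = 4 each), a log2 fold change of 0.77 (edgeR adjusted p = 0.0570). The filamin C gene Flnc, which Hspb7 and Bag3 bind, was named after its value was seen and had a log2 fold change of 0.22 (edgeR adjusted p = 0.438). Map1lc3a, an LC3 gene of the autophagosome membrane in the same list, also named after its values were seen, lay under the filter on low counts and was not tested. It had 11, 49, 30 and 27 counts in A17/+ 1 to 4, against 2, 4, 2 and 0 counts in WT 1 to 4. The groups did not overlap in CPM, an order with A17/+ above that 8.57% of all tested genes showed. The Map1lc3a transcript has 1112 nt, and among tested genes under 1500 nt 31.6% were higher. Map1lc3b, the other LC3 gene of the list, likewise named after its value was seen, had a log2 fold change of -0.20 (edgeR adjusted p = 0.520).

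Heat shock factors and other genes induced by heat shock factor 1 showed changes in a few members. Of 22 genes 17 were tested, 3 were higher and 0 lower, beside 6.34% higher and 2.61% lower among all tested genes, and the median log2 fold change was 0.09, a value that turned negative under several other settings. They included Ubb, which encodes ubiquitin, with a log2 fold change of 1.60 (edgeR adjusted p = 0.00486), and the Hsp90 cochaperone Chordc1, with 1.65 (edgeR adjusted p = 0.0113). Ubb averaged 192 ± 73.3 CPM in A17/+ and 61.7 ± 8.89 CPM in WT, and Chordc1 39.1 ± 5.87 CPM in A17/+ and 12.4 ± 3.43 CPM in WT (SD, n = 4 each). With 8.91 to 16.9 CPM in WT, Chordc1 passed the filter on low counts only through its 31.1 to 45.2 CPM in A17/+. Its call is therefore not read as a result about the list. Ubb is built of sequence repeats, so its counts are less certain. The inducible Hsp70 genes Hspa1a and Hspa1b, named after their values were seen, were too low to be tested. Dnajb1, the Hsp40 partner of Hsp70, chosen likewise, had a log2 fold change of -0.70 (edgeR adjusted p = 0.171).

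Some sarcomere and filament genes whose proteins the family binds rose. Of 17 genes, all tested, 7 were higher and 0 lower, with a median log2 fold change of 0.63. Among all tested genes 6.34% were higher, with a median of 0.01, and among those with transcripts under 1500 nt, to which Acta1 (1446 nt), Myoz1 (1289 nt), Tcap (948 nt) and the uncalled Csrp3 (899 nt) belong, 31.6% were higher. Acta1, skeletal actin, averaged 3719 ± 1257 CPM in A17/+ and 1156 ± 106 CPM in WT (log2 fold change 1.68, edgeR adjusted p = 0.00187). Ldb3, the Z-disc protein Cypher, averaged 339 ± 92.5 CPM in A17/+ and 110 ± 15.9 CPM in WT (1.61, edgeR adjusted p = 0.00192). Myoz1, which binds calcineurin at the Z-disc, had a log2 fold change of 1.99 (edgeR adjusted p = 0.00298), and Tcap, the titin cap, had 1.15 (edgeR adjusted p = 0.00404). Desmin (Des), the client of Cryab, chosen after its value was seen, had 1.31 (edgeR adjusted p = 0.00796).

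Among 4975 other tested genes, those with the pattern most like Hspb6 over the 8 libraries were Atp5o, Mb and Cox6a2, with Pearson r of log2 CPM of 0.994, 0.992 and 0.992. For Cryab they were Mpc2, Cisd1 and Atp5j2, with r of 0.986, 0.985 and 0.984. Atp5o and Atp5j2 encode parts of ATP synthase, Mb myoglobin, Cox6a2 a muscle subunit of cytochrome oxidase, Mpc2 a mitochondrial pyruvate carrier and Cisd1 a mitochondrial outer membrane protein. All 6 passed as higher in A17/+, with log2 fold changes from 2.04 (Mpc2) to 3.11 (Atp5o), and had transcripts of 680 to 1104 nt. They were picked for likeness to a called gene over both genotypes, so that they passed follows from the choice. The r values describe libraries that share genotype and depth, and no p is given.

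Markers of other cell types were read beside these results, as summed CPM of each list. The counts stand beside 6.34% higher and 2.61% lower among all tested genes. Among tested genes with transcripts under 1500 nt, a class that holds several fast fibre markers, 31.6% were higher. Fibroblast markers had 3 of 7 tested genes higher and 983 to 1669 CPM in A17/+ against 669 to 878 CPM in WT. Smooth muscle and pericyte markers, of cells that also make Hspb6, had 1 of 5 tested genes higher and 1065 to 1454 CPM in A17/+ against 983 to 1199 CPM in WT, and Cnn1 had under 10 counts in all. Adipocyte markers had 3 of 3 tested genes higher and 667 to 704 CPM in A17/+ against 184 to 370 CPM in WT. However, the defining genes Adipoq, Plin1 and Cidec had under 10 counts each over the 8 libraries. Among the tested genes, Fabp4 averaged 14.6 CPM in WT and passed the filter on low counts only through its mean of 91.1 CPM in A17/+. The adipocyte count of calls is therefore not read as a result. Erythroid markers had the only tested gene higher and 100 to 1333 CPM in A17/+ against 20.1 to 32.3 CPM in WT. That gene passed the filter on low counts only through its A17/+ levels, so its call is not read as a result. Macrophage markers had 0 of 2 higher and 325 to 393 CPM in A17/+ against 98.1 to 350 CPM in WT, with Cd68 under 10 counts in all. Endothelial markers had 0 of 5 higher, at 519 to 545 CPM in A17/+ and 467 to 515 CPM in WT. Tongue epithelium markers had 0 of 10 higher and 2 lower, at 10534 to 20504 CPM in A17/+ and 14609 to 16690 CPM in WT. Fast fibre markers had 7 of 11 higher, at 41925 to 48520 CPM in A17/+ and 27165 to 39698 CPM in WT. These 7 include Pvalb, which averaged 4.43 CPM in WT and passed the filter on low counts only through its mean of 107 CPM in A17/+. The call of Pvalb is therefore not read as a result. Slow fibre markers had 0 of 2 tested genes higher and 1 lower, at 196 to 225 CPM in A17/+ and 217 to 291 CPM in WT, with Tnni1 and Myl2 under 10 counts each and Myh7, Tnnc1 and Myl3 not analysed here. The part of these cell types, of depth and of short transcripts in the levels of the small heat shock genes was not tested.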

How the data were processed

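Tongue RNA of 4 A17/+ and 4 WT female mice was read by mcSCRB-seq, a 3' end method in which molecular identifiers let amplified copies be counted once, per the labels' protocols. The submitters' processing notes name cutadapt 2.10, STAR 2.7.5a, UMI-tools 1.1.1, HTSeq and the build mm10, without settings, strand or annotation. The authors deposited 1 table of raw counts for Ensembl genes, used here. They also deposited log2 values of 10709 genes per library, used in 1 alternative only.

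Symbols, positions and lengths came from GENCODE M21 (GRCm38), which matched 19675 of 19857 identifiers, and 182 kept their identifier. Genes were filtered by filterByExpr (minimum count 10, minimum total 15), which kept 5066, scaled by TMM and fitted with robust quasi-likelihood in edgeR 4.0.16 (R 4.3.3) on genotype alone. Adjusted p used Benjamini-Hochberg with 0.05 as the threshold. Standard errors and 95% intervals were derived from the F statistic. Hspb2 and Hspb3, under the filter, were tested by a two-sided exact permutation of log2(CPM + 1) over 70 assignments. Other named genes under the filter were not given this test. The fits were tested on simulated data. Promoter sequences came from RefSeq (GRCm38.p6). The members and lists were chosen with earlier results of these data known. Named beyond the members were up to 4 genes per list that passed (up to 2 as values where none did) and the 3 genes most like each called member. Of the genes this rule names, 1 is not reported here. Other genes are said to be chosen after their values were seen. Alternatives were other scalings, DESeq2 1.42.0, limma 3.58.1 (voom, and trend on the log2 values), other filters, a replicate block, a length trend removed by loess (span 0.5), no mitochondrial transcripts, thinned counts, and libraries left out. Library totals of 205696 to 485326 molecules make 1 molecule a few CPM. Labels count the mice as separate animals.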

Additional observations from a re-analysis of the deposited data

Results flagged for a closer look

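Over 56 groups of 4 libraries, 5 held a single value far from the other 3, where chance alone marks about 1 in 20 groups. Hspb2 stood at 59.3 CPM in A17/+ 3, against 11.3 to 17.1 CPM in the other A17/+ libraries. Bag3 stood at 167 CPM in A17/+ 2, against 113 to 117 CPM in the other A17/+ libraries. Transcripts shorter than 1000 nt took 6.46% of counts in WT 1, against 4.34% to 4.53% in the other WT libraries. Salivary gland genes summed to 2055 CPM in WT 1, against 0 to 10.2 CPM in the other WT libraries. Erythroid genes summed to 32.3 CPM in WT 2, against 20.1 to 21.7 CPM in the other WT libraries. These levels rest on only 10 counts in WT 2 and on 9, 6 and 4 counts in WT 1, WT 3 and WT 4.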

How the results depend on the processing

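Hspb6 kept its direction and its call in all 21 alternatives, with log2 fold changes from 1.62 to 2.66, and Bag3 passed in none of them. The cause of the changes below was not tested. The 453 genes called became 228 with limma-voom, 853 with no filter, 273 with thinned counts, 797 with limma-trend on the deposited values, 1025 without both libraries numbered 1, and 210 (without WT 3) to 890 (without WT 1) when 1 library was left out. With library totals only, the split was 279 higher and 289 lower, against 321 higher and 132 lower, and the median of all genes moved to -0.11. It was 0.15 with no filter. The 2 family genes called became 1 with limma-voom, 4 without both libraries numbered 1, and 1 to 3 when 1 library was left out. Cryab had 1.44 with limma-voom and 1.28 to 1.81 when 1 library was left out. Hspb1 passed with no filter (0.93) and without both libraries numbered 1 (1.19), and had 0.62 to 1.25 when 1 library was left out. Hspb7 passed without both libraries numbered 1 (0.57). Hspb8 passed as lower with the length trend removed (-0.65), and had -0.46 to -0.24 when 1 library was left out. The autophagy and BAG list, with 0 called, had 1 with upper quartile scaling, with a mean count of 10 or more and with the replicate block, 2 with no filter and with limma-trend, 3 without both libraries numbered 1, and 0 to 3 (without WT 1) when 1 library was left out. Its median was -0.0036 with the length trend removed and -0.079 with limma-trend. The heat shock factor list, with 3 called, had 5 with no filter and 1 with thinned counts. Its median was -0.024 with library totals, -0.15 with no filter, -0.037 with the length trend removed, -0.011 with limma-trend, -0.023 without WT 4, and -0.026 (without A17/+ 1) to 0.16 when 1 library was left out. The filament list, with 7 called, had 11 without both libraries numbered 1. With the replicate block 410 genes and the same 2 family genes passed. Same-numbered libraries deviated together with r of 0.0041, 0.07, -0.10 and -0.16 for numbers 1 to 4. With 4 libraries per group these values cannot decide whether same-numbered libraries share more than a number. On the second principal component A17/+ 1 and WT 1 stood at 18.4 and 19.6, and all other libraries at 5.05 (A17/+ 4) or lower. Hspb2 and Hspb3 lay under the filter on low counts, and did not pass with no filter (0.95 and 2.21) or with limma-trend (0.56 and 0.78).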

Other observations

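Hspb8 exceeded Cryab in CPM by a factor of 4.84, 1.61, 1.98 and 2.64 in A17/+ libraries 1 to 4, against 6.35, 10.8, 8.54 and 9.32 in WT libraries 1 to 4, and these ranges did not overlap. The factor of Hspb8 over Bag3 was 5.53 to 7.27 in A17/+ and 7.27 to 13.1 in WT. No test was made of these values. Cryab was itself called higher without overlap and Hspb8 was not called, so the factor over Cryab largely restates the Cryab result. The transcripts of Hspb8 (1816 nt) and Cryab (1117 nt) also fall in different length classes.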
